A study of Mus musculus with 2 samples.

Results

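Late round spermatids of the Cst13 stage were described here in the testis of wild-type (WT) mice and of mice without Alkbh5 (KO, genotype Alkbh5-/-). Both libraries came from C57BL/6 testis at 12 weeks of age, and there was 1 library for each genotype. The members were 542 of 12768 barcodes, 239 of 5756 in WT and 303 of 7012 in KO. They were chosen by their own transcripts: barcodes with a UMI (unique molecular identifier, 1 counted RNA molecule) of at least 2 of 10 marker genes of somatic and early germ cells were set aside, and each remaining barcode was scored for 10 sets of 3 genes, one set per stage from pachytene spermatocyte to condensing spermatid. A member was a barcode whose highest mean z-score was that of Cst13, Fam71b and Tssk2. The KO line is a whole-body deletion obtained by crossing heterozygous mice, so the deletion was not limited to germ cells. The study's methods name 3 mice per genotype and its introduction 1, so a library may pool animals. With 1 library per genotype no difference was tested: intervals are exact 95% intervals and cover counting error only, and genotype, animal and library cannot be told apart.

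ALKBH5 is a demethylase that removes N6-methyladenosine (m6A) from RNA. Late round spermatids are haploid cells that still transcribe. They store messenger RNA for protamines, tail proteins and enzymes, to be translated after the nucleus has condensed and transcription has stopped. Protamines and transition proteins replace histones in the later elongating spermatid, the testis serine kinases (TSSK) phosphorylate proteins of the forming sperm, and most genes of the X and Y chromosomes are silenced in meiosis and only partly read again in spermatids. Each spermatid carries an X or a Y chromosome, and cytoplasmic bridges join sister cells, so that transcripts of one sex chromosome reach cells that carry the other.

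Promoters of the 3 genes that chose the members are shown with that of Actrt3, a leading gene of the stage, and those of H2al3 and Cypt1, 2 abundant X-linked genes that were higher in KO. Each runs from 250 bases before the RefSeq start to 50 bases after it (build GRCm38.p6), 5′ to 3′ on the strand of the gene. Capitals mark TGACG (the core of the cAMP response element), TATAAA (the TATA box) and GTTGCC (the core of the X-box bound by RFX factors) on either strand. The full element TGACGTCA, which holds TGACG, was also searched.
Cst13 (chr2:148819849-148820148, plus strand): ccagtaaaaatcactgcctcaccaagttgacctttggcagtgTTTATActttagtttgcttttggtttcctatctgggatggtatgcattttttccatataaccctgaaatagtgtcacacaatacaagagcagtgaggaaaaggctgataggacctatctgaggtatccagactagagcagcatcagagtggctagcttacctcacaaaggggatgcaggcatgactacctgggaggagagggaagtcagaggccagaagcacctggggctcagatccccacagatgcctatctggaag
Fam71b (chr11:46404478-46404777, plus strand): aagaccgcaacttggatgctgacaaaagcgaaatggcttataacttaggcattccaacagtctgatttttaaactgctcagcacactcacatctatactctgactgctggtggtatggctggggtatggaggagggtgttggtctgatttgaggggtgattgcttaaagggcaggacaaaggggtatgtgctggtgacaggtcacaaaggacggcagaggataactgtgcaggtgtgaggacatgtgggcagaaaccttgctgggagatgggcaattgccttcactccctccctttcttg
Tssk2 (chr16:17898387-17898686, plus strand): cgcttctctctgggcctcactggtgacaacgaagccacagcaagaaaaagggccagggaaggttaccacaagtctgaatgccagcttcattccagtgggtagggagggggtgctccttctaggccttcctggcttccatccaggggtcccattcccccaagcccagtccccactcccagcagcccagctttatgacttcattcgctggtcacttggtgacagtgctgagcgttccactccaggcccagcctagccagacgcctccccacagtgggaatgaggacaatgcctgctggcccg
Actrt3 (chr3:30599821-30600120, minus strand): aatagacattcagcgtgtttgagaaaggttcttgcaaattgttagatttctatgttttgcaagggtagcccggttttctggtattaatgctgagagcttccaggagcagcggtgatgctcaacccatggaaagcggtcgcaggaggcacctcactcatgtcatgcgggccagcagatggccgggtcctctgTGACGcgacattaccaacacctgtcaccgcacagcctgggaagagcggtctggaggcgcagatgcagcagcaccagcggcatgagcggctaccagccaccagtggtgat
H2al3 (chrX:9849453-9849752, plus strand): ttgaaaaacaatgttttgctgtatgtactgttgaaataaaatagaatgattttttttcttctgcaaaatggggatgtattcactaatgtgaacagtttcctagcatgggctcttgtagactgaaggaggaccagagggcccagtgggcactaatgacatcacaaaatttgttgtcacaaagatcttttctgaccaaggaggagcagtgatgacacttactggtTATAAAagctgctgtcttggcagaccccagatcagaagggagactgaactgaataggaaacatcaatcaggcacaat
Cypt1 (chrX:16522619-16522918, plus strand): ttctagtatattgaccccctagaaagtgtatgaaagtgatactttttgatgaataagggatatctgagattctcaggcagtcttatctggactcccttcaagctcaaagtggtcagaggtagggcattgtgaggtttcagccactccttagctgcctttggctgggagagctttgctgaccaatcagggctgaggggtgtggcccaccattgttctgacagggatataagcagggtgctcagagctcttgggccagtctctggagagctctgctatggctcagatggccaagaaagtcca
Cst13 had TATAAA on the reverse strand at bases -208 to -203 from the start, Actrt3 had TGACG at -59 to -55, and H2al3 had TATAAA at -27 to -22. No letters of the 4 motifs were found in the windows of Fam71b, Tssk2 and Cypt1. Among the 15 genes that stood out most in members, 3 held TGACG (20%), 2 TATAAA (13.3%), 3 GTTGCC (20%) and 0 TGACGTCA. Of 27018 genes with a promoter of this length, 23% held TGACG, 15.7% TATAAA, 14.1% GTTGCC and 2.03% TGACGTCA. These shares describe letters in the windows and are not binding sites.

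Members took nearly the same share of all barcodes in both libraries. They were 4.15% (3.65 to 4.70) of WT barcodes and 4.32% (3.86 to 4.82) of KO barcodes, which gives a KO to WT ratio of 1.04 (0.875 to 1.24). The Cd46-stage cells just before them had the same ratio (1.04, 0.876 to 1.23), while the Prss58-stage cells just after them were 10.3% of WT and 6.57% of KO barcodes (ratio 0.641, 0.567 to 0.726). The ratio was lower still in later stages, at 0.537 for the Tnp2 stage, 0.293 for the Klk1b8 stage and 0.268 for the Spem1 stage. The denominators were not alike, because 365 WT and 2734 KO barcodes were set aside. Over the 5391 WT and 4278 KO barcodes given a stage, members were 4.43% and 7.08%, a ratio of 1.6 (1.34 to 1.90), and Prss58-stage cells 10.9% and 10.8%, a ratio of 0.985. With z-scores taken within each library, the ratio of members over all barcodes was 0.725, so it depended on the scoring and on the denominator.

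**Figure D1:**
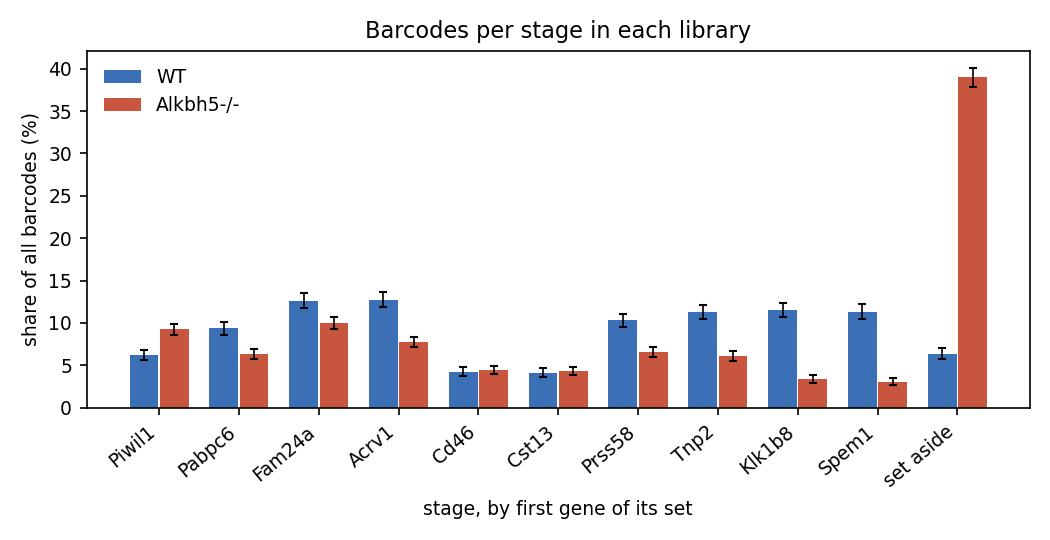
Share of all barcodes (y axis, percent) in each of the 10 stages and among barcodes set aside (x axis, stages named by the first gene of their set), with exact 95% binomial intervals as bars, in WT (blue) and KO (red). The Cst13 stage holds 4.15% and 4.32%, and the red bars fall further below the blue ones from the Prss58 to the Spem1 stage.

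The median member had 13663 UMIs from 2817 genes in the WT library and 11195 from 2633 genes in the KO library. Thinned to 6305 UMIs each, which left out 13 WT and 41 KO members, they had medians of 1879.5 and 1888 genes. The libraries hold 80283221 and 82056760 UMIs. They share 45 barcode sequences, of which 2 belong to WT members and 0 to KO members. Scores that chose the members had medians of 2.02 in WT and 2.00 in KO. The next highest set was that of the Prss58 stage for 81.2% of WT and 74.6% of KO members and that of the Cd46 stage for 7.95% and 14.2%. A position score, the Prss58-set score minus the Cd46-set score, had a median of 1.33 in WT and 1.12 in KO, and its lower quartile was 0.81 and 0.38, and 24.4% of KO against 14.6% of WT members fell in the earliest of 5 groups along this score. The class is a range along a continuum: 31 WT and 43 KO members led the next set by under 0.1. The WT member nearest to the limit scored 0.777 against 0.773 for its next set, and the nearest WT cell left out scored 1.680 against 1.682. In KO, the nearest cell left out scored 1.706 against 1.707. A score under 0.5 was found in 1 WT and 4 KO members.

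Of the 3 genes of the set, Cst13 and Fam71b peaked in members and Tssk2 did not, in both libraries. These genes chose the members, so the rule itself favoured high levels and wide detection of them, and their levels are a description only. Cst13 (chr2:148820081-148830410, GRCm38, plus strand), a gene of the cystatin family of protease inhibitors, had 2526 UMIs per 1000000 (CPM) in WT members and 2252 in KO members. Its level was 1490.4 and 1524 CPM in the Cd46 stage and 961 and 1012 CPM in the Prss58 stage. Fam71b (chr11:46396559-46407982) was the sharpest, with 243 and 271 CPM in members, 93.3 and 110 before them and 36.7 and 37.1 after them. Tssk2 (chr16:17898637-17900024), a testis serine kinase, had 1221 and 1152 CPM in members but a higher level, 1411 and 1294 CPM, in the Prss58 stage. All 3 were detected in 237 of 239 WT and 298 of 303 KO members. In barcodes that were set aside, with medians of 9529 and 8142.5 UMIs, Cst13 was detected in 24.1% and 15.4% and Fam71b in 10.7% and 4.57%, and Tssk2 in 49.6% and 25.6%. Whether these came from spermatids among those barcodes or from RNA outside the cells was not tested.

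**Figure D2:**
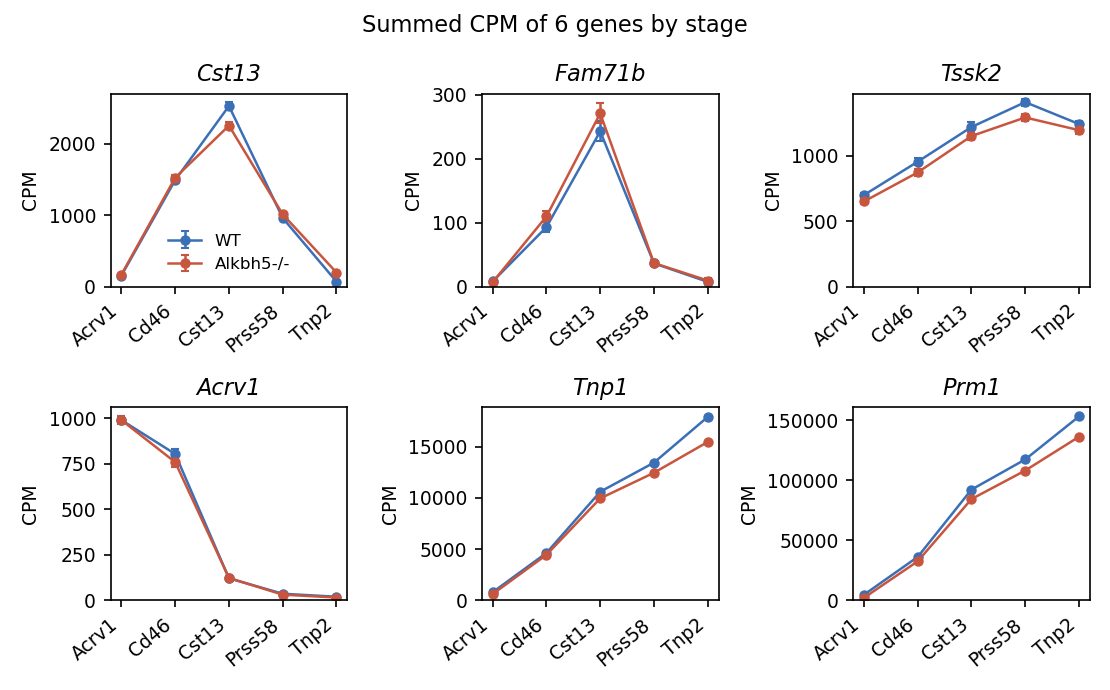
CPM of summed UMIs (y axes, from 0) of 6 genes in the Acrv1, Cd46, Cst13, Prss58 and Tnp2 stages (x axes) in WT (blue) and KO (red), with exact 95% Poisson intervals. Cst13 and Fam71b, which are genes of the rule that chose the members, peak in the Cst13 stage in both libraries. Acrv1 falls from 990 CPM in its own stage to 121 and 123 CPM, and Tnp1 and Prm1 are already high and still climbing.

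Levels of genes of the neighbouring stages are given next. Acrv1, Cd46 and Tnp2 belong to the sets of other stages, so the rule itself favoured low levels of them in members, and their levels are no check of the label. Acrv1, which encodes an acrosomal protein, had 121 CPM in WT and 123 in KO members against 804 and 759 in the Cd46 stage. Cd46, a membrane protein of the acrosome in mice, had 6.69 and 7.35 CPM in members against 116 and 108 in the stage named for it. The protamine gene Prm1 had 92275 CPM in WT members and 84387 in KO members, and transition protein genes Tnp1 and Tnp2 had 10607 and 16316 CPM in WT and 9958 and 15743 in KO. The 14 markers of elongating spermatids together made up 165980 CPM in WT and 155466 in KO members. They also made up 77264 and 27680 CPM in barcodes set aside, so part of their level in any cell may be RNA from outside it, which was not tested.

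Genes that stood out in members are given as a description with no test, since the same cells and genes chose the class. Of 3320 genes detected in at least 25% of members of each library, 122 were at least 2 times higher and 393 at least 2 times lower than in the Cd46 stage in both libraries. Against the Prss58 stage, 293 were at least 2 times higher and 0 lower. In both libraries, 389 were above both neighbouring stages by any margin, and 4 exceeded both by a factor of 2: the rule gene Fam71b, Gm30302, Fam131c and Rraga, a GTPase of nutrient signalling to mTOR. Actrt3, an actin-related protein of the sperm head, had 618 CPM in WT members against 341 before and 224 after, and 568 against 300 and 269 in KO. Tuba8, a tubulin, and Ifngr2, an interferon gamma receptor chain, were among the 15 leading genes, with 170 and 247 CPM in WT members. Trp53tg5, Prss37 (of the serine protease family), Gpat3 (a glycerol phosphate acyltransferase) and Mphosph6 were also among them. Of the 15, 0 passed the criterion for a KO to WT difference that is given below. Of all 3934 genes compared, only 3% were higher and 1.93% lower, so 0 of 15 says little about these genes.

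Within members, many transcripts were lower at the later than at the earlier end, as a description of the score that chose them. Of genes detected in at least 25% of WT members and not in the rule, 344 were at least 2 times lower in the 194 WT members next to the Prss58 stage than in the 19 next to the Cd46 stage, and 336 of these had the same direction in KO (226 and 43 members). Ankrd7 had a log2 ratio of -2.91 (-3.31 to -2.50) in WT and -3.92 in KO, Lyzl6, a lysozyme-like acrosomal protein, -2.73 and -2.96, and Cep290, a centrosomal protein, -2.52 and -2.43. Genes at least 2 times higher at the later end numbered 77 in WT, and 39 of these had the same direction in KO. The 10 largest of them rested on 2 to 4 UMIs at the earlier end in WT, so their ratios are imprecise.

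Alkbh5 itself (chr11:60536381-60558512) had 3 UMIs in WT members (0.743 CPM) and 2 in KO members (0.474 CPM), so its loss was not detectable at this depth in these cells. Which part of the gene the counted reads cover is not given in the sources used here.

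Most of the genes called higher in KO members were X-linked. A gene was compared where a UMI was found in at least 25% of members of either library. A gene could thus enter through 1 library alone, and the filter then favoured a higher level in that library. A compared gene was called where ln(mean counts per 10000 + 1) differed by at least 0.25. The 25% comes from the study's methods, and the 0.25 is the default of the marker test they name. Of 3934 genes compared, 118 were higher in KO (3% of them) and 76 lower (1.93%). X-linked genes were 70 of the 118: 70 of 128 X-linked genes compared (54.7%) were higher, 0 were lower, and 127 had a ratio above 1. Their median log2 ratio was 1.13, with quartiles of 0.84 and 1.38. Some X-linked genes entered through KO alone, such as Gm15091 (detected in 4.6% of WT and 33% of KO members). Fthl17a entered through WT alone (25.5% and 24.4%). For genes that entered through KO alone a ratio above 1 was favoured by the filter, and they count in the 127 and in the median. Of 3714 autosomal genes, 37 (0.996%) were higher and 75 (2.02%) lower, with a median log2 ratio of -0.06, and the autosome with the largest share of higher genes was chromosome 11, with 6 of 297. With totals that leave out X-linked, Y-linked and mitochondrial genes, 54 autosomal genes were higher and 56 lower, so the balance between directions on the autosomes depended on the scaling.

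**Figure D3:**
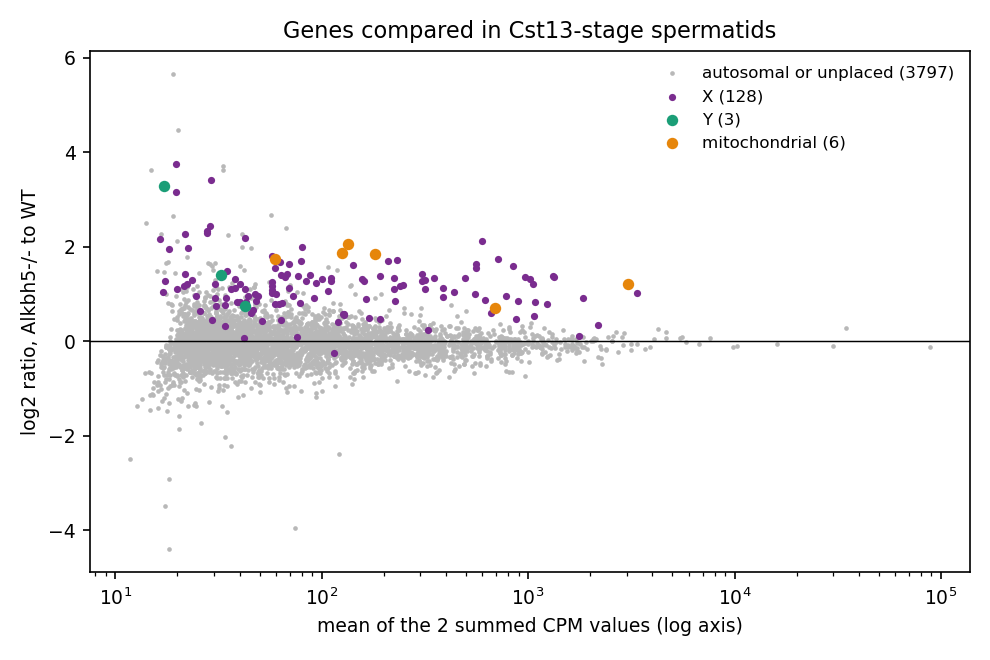
Log2 ratio of summed CPM, KO to WT (y axis), against the mean of the 2 CPM values (x axis, log scale) for the 3934 genes compared in members, 1 point per gene, coloured by X, Y, mitochondrial or other position. X-linked genes have a median of 1.13 and autosomal genes one of -0.06. At low levels many X-linked genes entered through KO alone, which favoured a ratio above 1.

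In summed UMIs, X-linked genes took 2.56% of WT and 5.13% of KO members' RNA, a ratio of 2.00 (1.99 to 2.02). Without Cypt1 it was 2.00, and without the 10 most abundant X-linked genes it was 2.22 (2.19 to 2.24). By level, the median log2 ratios of 4 groups of 32 genes ordered by mean CPM were 1.22, 0.98, 1.25 and 1.08, from the lowest to the highest. In the same order 5, 13, 24 and 28 genes were called higher, so passing the criterion went with level. Most genes of the lowest group entered the comparison through KO alone, such as Gm15091 and F8a (detected in 11.3% of WT and 33.3% of KO members). The filter favoured ratios above 1 for these genes, so the median of the lowest group was partly set by it. Along the chromosome, 19 of 35, 13 of 28, 17 of 28 and 21 of 37 genes were higher in 4 stretches of equal length, with medians of 1.07 to 1.21. In 5 groups of members ordered by position, the share was 2.52% to 2.62% in WT and 5.05% to 5.22% in KO.

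Cell by cell, nearly all KO members lay above every WT member. The X-linked share of a WT member was between 1.61% and 3.24%, with a median of 2.58%. The share of a KO member was between 0.402% and 13.4%, with a median of 4.97%. Of 303 KO members, 292 lay above the highest WT member, 10 within the WT range and 1 below it. The SD over members was 0.239 percentage points in WT, against 0.142 from counting alone, and 1.12 in KO, against 0.216. Across members of a library, the X-linked and Y-linked shares had a Spearman rho of -0.28 in WT (239 cells) and -0.16 in KO (303 cells), as a description of shares of 1 total.

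**Figure D4:**
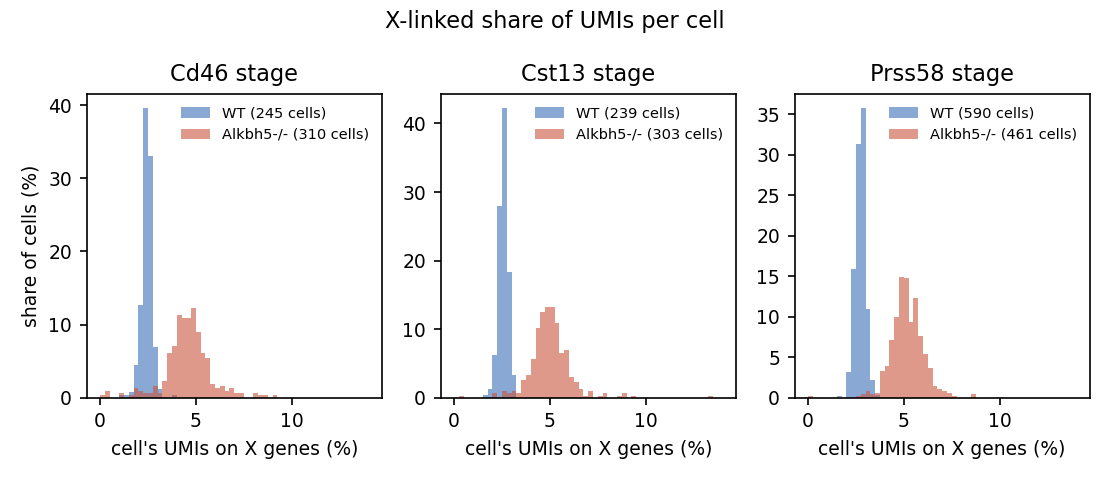
Share of cells (y axis, percent) by the percentage of a cell's UMIs that came from X-linked genes (x axis, bins of 0.25) in the Cd46, Cst13 and Prss58 stages, WT in blue and KO in red. In the Cst13 stage the WT cells lie between 1.61% and 3.24%, and 292 of 303 KO cells lie above them, and the other 2 stages show the same shift.

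Other stages had similar ratios. The ratio of X-linked shares was 1.94 in the Cd46 stage, 1.91 in the Prss58 stage and between 1.48 and 1.79 in the Fam24a, Acrv1, Klk1b8 and Spem1 stages. It was 3.74 in the Piwil1 stage (pachytene), where the WT share was 0.205%, and 1.28 in barcodes set aside. KO barcodes set aside had an X-linked share of 3.02%, below the 5.13% of members. The Y chromosome moved the same way at a low level: 0.0210% of WT and 0.0429% of KO members' UMIs, a ratio of 2.04 (1.88 to 2.22). Of 3 Y-linked genes compared, Sly, a spermatid regulator of sex chromatin, had 32 CPM in WT and 53.4 in KO, a log2 ratio of 0.74 (0.42 to 1.06). None of the 3 passed the criterion.

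In the list of X-linked and Y-linked spermatid genes, 6 of 8 compared were higher, beside 54.7% of all X-linked genes compared. Cylc1, 1700003E24Rik, BC061195, Prdx4 and Dynlt3, which were called higher, are in no list and were chosen after their values were seen. All 5 compared genes of cysteine-rich perinuclear theca proteins, which surround the sperm nucleus, were higher: Cypt1 had 2220.4 CPM in WT and 4508 in KO (log2 1.02, 0.99 to 1.06), Cypt2 539 and 1391, Cypt3 1285 and 2412, and Cypt15 285 and 834. Cylc1, a cytoskeletal protein of the same layer, had 527 and 1033 CPM. H2al3, a spermatid histone H2A variant, had 747 and 1930.4 CPM (log2 1.37, 1.31 to 1.43), and H2al1n, of a family of near-identical copies whose reads may be split, 107 and 354. Actrt1, an actin-related protein, had 64.4 and 157 CPM. The uncharacterised 1700003E24Rik had 224 and 969 CPM (log2 2.12) and BC061195 328 and 1098, and these neighbours of equal length may share reads. Genes with broader roles were also called: Prdx4, a peroxiredoxin of the secretory pathway, had 870 and 1264 CPM, and Dynlt3, a dynein light chain, 266 and 510.

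A few X-linked genes that were not past the criterion had ratios near 1, and of these Tsga8, Lamp2 and Gm595 were also chosen after their values were seen. Akap4, the main anchor protein of the fibrous sheath, had 1930.5 CPM in WT and 2446 in KO, a log2 ratio of 0.34 (0.30 to 0.38). H2afb1, a short histone H2A variant, had 1701 and 1837 CPM (log2 0.11, 0.06 to 0.16). Tsga8 had 299 and 355 CPM, and Lamp2, a lysosomal membrane protein, 73.1 and 78.3. The single gene of the 128 compared with a ratio below 1 was Gm595, with 124 and 105 CPM (log2 -0.25, -0.43 to -0.06). The 58 X-linked genes that were compared and not past the criterion had a median log2 ratio of 0.84 and a maximum of 3.16. Their median level was 42.3 CPM, against 217 for the 70 called higher, so not passing does not mean little change.

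Mitochondrial transcripts were higher in KO members as well. They took 0.263% of WT and 0.609% of KO UMIs (ratio 2.32, 2.27 to 2.37), and 6 of 6 compared genes passed the criterion. Of these, mt-Co1, mt-Cytb, mt-Nd1 and mt-Nd4 entered the comparison through KO alone, so the filter favoured a higher level in KO. For example, mt-Nd4 was detected in 12.6% of WT and 26.1% of KO members. The count of 6 of 6 was thus partly set by the filter. Only mt-Rnr1 and mt-Rnr2 entered through both libraries, with log2 ratios of 0.70 and 1.21. mt-Co1, a cytochrome c oxidase subunit, had 78.8 and 283 CPM, and mt-Cytb 51.8 and 217. In the list of mitochondrially encoded proteins, 8 of 8 measured genes were above 0, with a median log2 ratio of 1.90. mt-Co1 was found in 23% of WT and 46.2% of KO members, and per member the mitochondrial share ran from 0.0102% to 6.38% in WT and from 0.0402% to 11.7% in KO. Barcodes set aside had 3.71% and 6.71%. The share fell with depth across members (Spearman rho -0.70 in WT and -0.62 in KO), and KO members were shallower. With members thinned to 6305 UMIs the median of the list was 2.38. Thinning keeps the mitochondrial share expected of each member, so it cannot separate depth from genotype. The part of RNA from other cells in the difference was not tested.

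Genes of other cell types were also found at higher levels in KO members. The 10 Leydig cell markers summed to 17.3 CPM in WT and 101 in KO, with 7 and 9 of them detected, and the 12 Sertoli cell markers to 7.43 and 62.9, with 9 and 10 detected. Ptgds, a prostaglandin D synthase in the Leydig list, had the largest log2 ratio among compared genes with at least 100 UMIs, 5.65 (4.07 to 7.94), from 3 UMIs in WT and 157 in KO. It was found in 31.7% of KO members and in 27.6%, 28.4% and 27.1% of KO cells of the Acrv1, Cd46 and Prss58 stages, and its level in KO barcodes set aside was 10480 CPM. Lcn2, another gene of that list, had 13.6 and 42.9 CPM and passed the criterion. Of the defining Leydig genes, Cyp11a1 had 0 and 4 UMIs, Star 1 and 7 and Hsd17b3 0 and 3. Among Sertoli genes, Clu had 1 and 72 UMIs and Sox9 1 and 1. The 10 macrophage markers summed to 77.3 and 93.7 CPM, the 11 spermatogonial markers to 59.5 and 103 CPM and the 14 meiotic markers to 553 and 637 CPM. Their part in the counts of called genes was not tested.

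Several other genes that were called higher also had large ratios in the stages before and after. Nptx2, a neuronal pentraxin, had 1.73 CPM in WT and 38.7 in KO members (log2 4.48, 3.40 to 5.82), with log2 ratios of 3.52 and 3.86 in the stages before and after. Aldh1l1, a folate enzyme, had 4.71 and 61.9 CPM (log2 3.72). Cdk14, a cyclin-dependent kinase, had 4.96 and 61.4 CPM (log2 3.63). Nmnat3, an enzyme of NAD synthesis, had 15.4 and 98 CPM (log2 2.67), and Romo1, a mitochondrial inner membrane protein named after its values were seen, 21.3 and 113 CPM (log2 2.41). The remaining genes of the 12 with the largest ratios were Gm15091, 9530051G07Rik and Gm9043 on X, Gm28919 on Y, Fam174a, Mrpl33 and CT009556.2, with log2 ratios of 2.51 to 3.75, and of these 7 only Gm15091 and 9530051G07Rik passed the criterion. Fam174a had -0.16 in the Cd46 stage. All 12 genes, with Ptgds among them, entered the comparison through KO alone, as did Nptx2 (detected in 2.93% of WT and 32.3% of KO members). The filter thus favoured a high ratio in members for each of them. Romo1 entered through both libraries (25.9% and 71%).

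Genes called lower in KO held a small group with large ratios and a larger group with small ones. 4930590H14Rik (chromosome 9) had 34.7 CPM in WT and 1.66 in KO (log2 -4.39, -5.73 to -3.30), and 1700063D05Rik, on the same chromosome, 140 and 9.01 CPM (log2 -3.96, -4.47 to -3.48). Gm10638 had 204 and 39.1 CPM (log2 -2.38), Fxyd2, a regulator of the sodium pump, 59.7 and 12.8 (log2 -2.22), and Chpt1, the last enzyme of phosphatidylcholine synthesis, 54.8 and 13.5 (log2 -2.02). All 5 had log2 ratios of -1.68 or below in the stages before and after. Only 9 of the 76 called genes were at least 2 times lower. Of all compared genes 49 were, and genes of low level can hardly pass the criterion, so the split holds for called genes only. Among the 12 with the most negative ratios, 1810065E05Rik (log2 -3.49), Galnt10 (-2.92) and Tekt3 (-1.72) lie 2.12 and 2.89 Mb before and 2.53 Mb after the start of Alkbh5 on chromosome 11. Of 30 compared genes within 5 Mb of Alkbh5, 4 were lower and 1 higher, against 7 and 5 of 267 on the rest of the chromosome. Tekt3, a tektin of the flagellar microtubules, had ratios of -0.33 and -0.26 in the stages before and after, and neither it nor Galnt10 was past the criterion in members. Ccr7, Tmed7, Gm41177 and Zfp12 completed the 12, with log2 ratios of -1.86 to -1.47, and none of them passed the criterion.

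The larger group had modest ratios and included regulators of RNA and protein. Rnf151, a ring finger protein of spermatids, had 2664 CPM in WT and 1907 in KO (log2 -0.48, -0.52 to -0.44). Eif4e, the cap-binding initiation factor of translation, had 984 and 631 CPM (log2 -0.64, -0.71 to -0.57). Larp1, an RNA-binding protein that controls translation of ribosomal protein mRNA, had 179 and 118 CPM (log2 -0.60), and Igf2bp3, an m6A reader that stabilises mRNA, 300 and 209 (log2 -0.53, -0.65 to -0.40). Tex33, named after its values were seen, had 1209 and 722 CPM (log2 -0.74). Larp1 lies 2.53 Mb before Alkbh5.

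**Figure D5:**
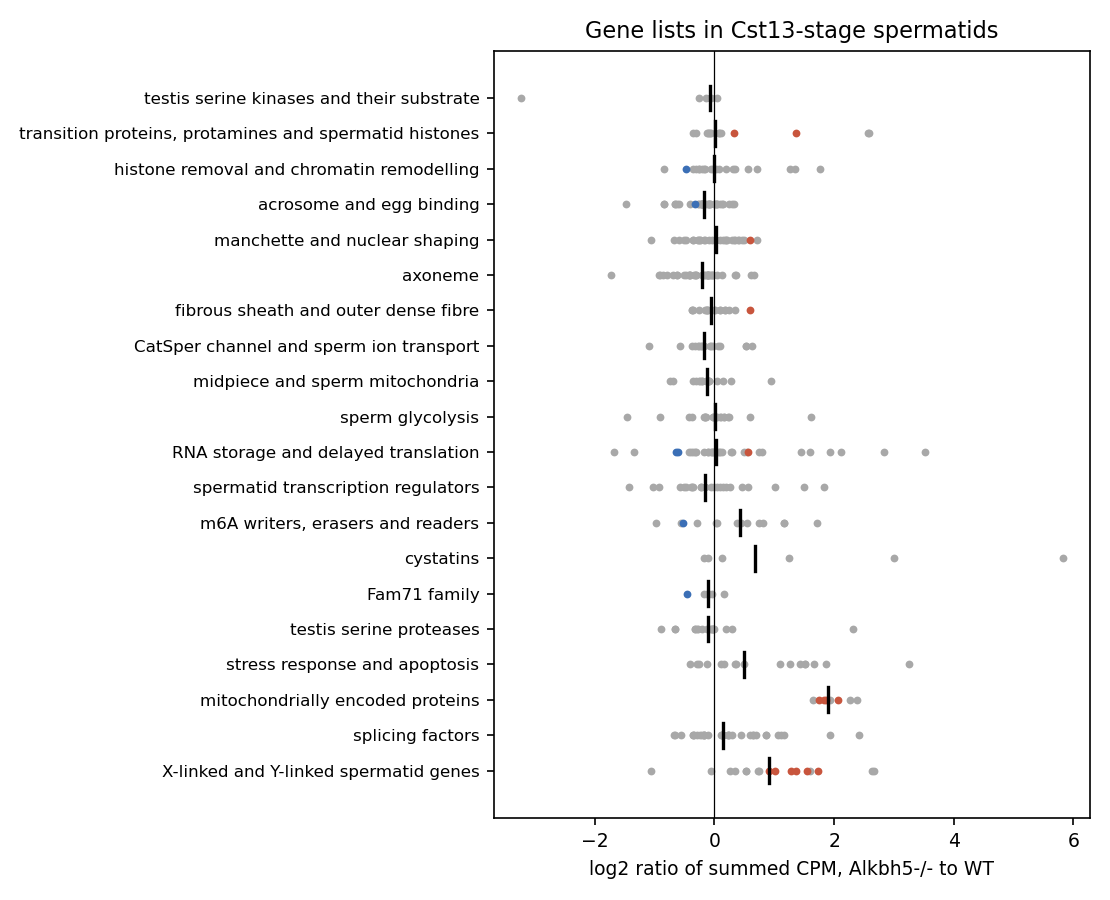
Log2 ratio of summed CPM, KO to WT (x axis), of each gene with at least 10 UMIs in 20 gene lists (y axis), red and blue for genes called higher and lower, grey for the rest, and a black bar at each list's median. The X and Y list and the mitochondrial list have medians of 0.91 and 1.90, and the structural lists lie near 0. All X-linked genes with at least 10 UMIs have a median of 1.26.

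Most genes of sperm building did not pass the criterion, as was so for most of all genes compared. Over all 12527 genes with at least 10 UMIs the median log2 ratio was 0.04, with 3% of compared genes higher and 1.93% lower. Of the 6 compared genes of the testis serine kinases and their substrate, 0 were called and the median of 7 measured was -0.08. Tssk1, Tssk3 and Tssk6 had ratios of -0.08, 0.04 and -0.25. Among transition proteins, protamines and spermatid histones, 2 of 12 were higher (H2al3 and H3f3b) and 0 lower, with a median of 0.01 and of -0.06 without the X-linked members. Prm1 (log2 -0.13, -0.14 to -0.12), Prm2 (-0.10), Tnp1 (-0.09) and Tnp2 (-0.05) differed little, and Prm3 had -0.36. H3f3b, a histone H3.3 gene, had a ratio of 0.32, but -0.61 where members had to lead the next set by 0.25, and 0.10 without the 5 members that scored under 0.5.

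Most lists of sperm structure had medians slightly below 0. Acrosome and egg-binding genes had a median of -0.17 over 38, with 1 of 27 compared lower (Ccin, calicin of the sperm head, 504 and 401 CPM). Axoneme genes had -0.20 over 37, with 31 below 0 and 0 of 24 called. CatSper channel and ion transport genes had -0.17, with 0 of 10 called, and midpiece genes -0.13, with 0 of 15. Without cells called doublets the acrosome, axoneme and midpiece medians were 0.05, -0.05 and 0.15. Fibrous sheath and outer dense fibre genes had -0.06, with 1 of 18 higher, Odf1, the main outer dense fibre protein, at 200 and 301 CPM (log2 0.59). Odf1 also stands in the list of manchette and nuclear shaping, with a median of 0.03 and 1 of 21 higher. Histone removal and remodelling genes had -0.01, with 1 of 9 lower (Rnf151). Sperm glycolysis genes had 0.01, with 0 of 17 called.

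Lists of gene regulation were mixed. RNA storage and delayed translation had a median of 0.02, with 1 of 20 higher (Ybx3, a Y-box protein that stores mRNA, 242 and 356 CPM, log2 0.56) and 2 lower (Eif4e and Larp1). Ybx2, its testis relative, had 281 and 284 CPM. Spermatid transcription regulators had -0.15, with 0 of 16 called, and Crem, the activator of many spermatid genes, had 113 and 81.6 CPM (log2 -0.47, -0.68 to -0.27). The m6A writers, erasers and readers had 0.42 over 14 mostly low genes, and -0.25 where members had to lead the next set by 0.25, with 1 of 3 compared lower (Igf2bp3), and Fto, the other m6A eraser, had 57.5 and 58.6 CPM. Splicing factors had 0.14, with 0 of 10 called, and stress and apoptosis genes 0.49, with 0 of 4, falling to 0.06 where members had to lead the next set by 0.25. The Fam71 family had -0.11, with 1 of 7 lower (Fam71a, 639 and 466 CPM), and testis serine proteases -0.10, with 0 of 10. Cystatins had 0.68 over 6 (-0.07 among members with none of the 10 excluded markers), of which Cst8, with 2463 and 2674 CPM, and Cstl1, with 799 and 743, were the abundant ones beside Cst13, and 0 of 3 were called. The cystatin list names Cst9, an excluded marker that those members lack by definition, and Cst12, which is also in the Sertoli list. The move to -0.07 may thus be partly fixed in advance. The list of X-linked and Y-linked spermatid genes had 0.91, with 6 of 8 compared higher. All 427 X-linked genes with at least 10 UMIs had a median of 1.26, so the list does not stand out from its chromosome.

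Promoter motifs were counted for the called genes as well. Of the 70 X-linked genes higher in KO, 47 had a promoter entry, and 17% of these held TGACG, 10.6% TATAAA and 19.1% GTTGCC. The H2al3 promoter printed above is one of those with TATAAA. For the 42 of 58 X-linked genes not past the criterion the shares were 26.2%, 11.9% and 21.4%. Of the 76 genes lower in KO, 55 had an entry, and 38.2% held TGACG and 9.09% the full TGACGTCA, against 34.5% and 4.22% of 2917 compared genes.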

How the data were processed

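Single-cell RNA-seq was done on dissociated testis with the GEXSCOPE kit. The authors deposited 1 table of UMI counts per library, not normalized, with genes in rows and cell barcodes in columns (5756 WT and 7012 KO barcodes, with at least 564 and 833 genes each). Per the submitters' processing notes, featureCounts 1.6.2 was used with STAR 2.5.3a. The methods name a human build although the symbols are mouse, so which build and annotation was used is unclear. Positions came from GENCODE (GRCm38) by symbol, which placed 35501 of 36547 symbols.

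The 2 tables were joined by symbol, and genes listed in only 1 library counted as 0 in the other. Doublets were kept, and Scrublet (scanpy 1.11.5) calls were left out as an alternative. Members were classed on ln(1 + UMIs per 10000). Levels are CPM of UMIs summed over members, and ratios carry exact conditional Poisson 95% intervals, shares Clopper-Pearson ones. Named genes were Alkbh5, the rule genes of 3 stages, the 12 with the largest ratio in each direction among compared genes with at least 100 UMIs, the 15 leading stage genes, the 10 in each direction along the class, and members of 20 lists and 18 marker lists. Members and lists were chosen with earlier results of these data known. The scripts were tested on simulated data.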

Additional observations from a re-analysis of the deposited data

Results flagged for a closer look

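Cst13, the gene the stage is named for, had a KO to WT log2 ratio of -0.17 (-0.21 to -0.13) in members and of 0.07 (0.02 to 0.12) in Prss58-stage cells. The directions were opposite and the intervals, which cover counting error only, did not overlap. Cst13 is part of the rule that chose the cells, and it was not past the size criterion in members.

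H3f3b, which encodes the replacement histone H3.3, had a log2 ratio of 0.32 (0.16 to 0.49) in members and of -0.32 (-0.36 to -0.27) in Cd46-stage cells. It was found in 49% of WT and 49.8% of KO members. With 1 library per genotype, neither difference between stages was tested.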

How the results depend on the processing

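Of 309 values that answer a comparison, 284 stayed within their limit and 25 moved further. The limit was the interval of a value, or for counts of genes a change of 1.5 times. For X-linked shares it was the SD over members (0.239 percentage points in WT and 1.12 in KO), which is wider than their counting interval. The X-linked counts and shares stayed within these limits under every alternative run. In these runs 69 to 78 X-linked genes were higher, and their median was 1.13 to 1.19. The X-linked share was 2.55% to 2.62% in WT and 5.08% to 5.28% in KO. These ranges go beyond the counting intervals of the main run (2.55% to 2.58% in WT and 5.11% to 5.15% in KO). Leaving out the 5 members that scored under 0.5 (an alternative chosen after seeing the data, as were totals without X-linked, Y-linked and mitochondrial genes) gave 115 genes higher and 67 lower.

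With z-scores within each library, members were 4.9% of WT and 3.55% of KO barcodes (ratio 0.725). With a lead of at least 0.25 over the next set they were 2.62% and 2.94%, and with none of the 10 excluded markers 2.78% and 2.85%. Of barcodes given a stage they were 7.08% in KO (ratio 1.6). Calling by a CPM ratio of at least 2 gave 49 genes lower, of which 9 were among the 76, and 147 higher, of which 88 were among the 118. Totals without X-linked, Y-linked and mitochondrial genes gave 60 genes higher and 57 lower of 3797 tested, where the 128 X-linked genes could not be called.

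Without cells called doublets, the medians of the acrosome, axoneme and midpiece lists were 0.05, -0.05 and 0.15. With members thinned to equal depth, the acrosome, midpiece and mitochondrially encoded lists had -0.07, -0.06 and 2.38. With equal weight of 5 position groups, the acrosome, fibrous sheath and CatSper lists had -0.33, -0.14 and -0.29. With totals without X-linked, Y-linked and mitochondrial genes the midpiece list had -0.08. With a lead of at least 0.25, the stress and mitochondrially encoded lists had 0.06 and 1.58. With none of the excluded markers, the stress and splicing lists had 0.10 and -0.27. H3f3b reversed to -0.61 with the lead and to -0.54 with none of the excluded markers. The cause of these moves was not tested. Of 572 values of single genes and other details, 495 were labelled the same, 21 moved and 2 reversed. Another 45 no longer passed the criterion and 9 newly passed it. A gene called in neither run was labelled the same where its ratio stayed within its counting interval, so its direction could differ.

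No paired analysis was possible because each genotype has 1 library. Depth limits genes such as Alkbh5 with a few UMIs, and the 1 library per genotype limits every comparison.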
